A study of Homo sapiens with 4 samples.

Results

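The mucin genes are a family defined by proteins rich in serine, threonine and proline that carry dense O-linked sugars. Of 9 mucin genes named for this description (MUC1, MUC2, MUC4, MUC5AC, MUC5B, MUC6, MUC13, MUC16 and MUC20), 7 have a row among the 16376 genes of the deposited expression table, and MUC13 and MUC16 are not analysed here. The rows were found by gene symbol. The genes were chosen with their levels and their difference between ketotifen and PBS already known, so that difference is given as a description. No p-value is given for it, and where calls of a fit over all genes include these mucins, they are counted only and nothing is read from them.

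RNA was sequenced from LASCPC-01, a human cell line of neuroendocrine prostate cancer that was derived from benign prostate epithelium by introducing N-Myc together with active AKT1, so both introduced genes are present in every library. There were 2 libraries of cells treated with ketotifen, an antihistamine and mast cell stabiliser, and 2 of cells treated with PBS, all labelled day 3 and genotype WT. The ketotifen dose is not given in the sources used here, and all cells come from 1 line. The series title proposes ketotifen as an agent against neuroendocrine prostate cancer, and the libraries compare its effect on expression with that of the PBS vehicle. Levels are in FPKM, a read number divided by gene length and by library size, so levels of different genes can be set side by side. Group values are means ± SD with n = 2 libraries. The labels do not state that same-group libraries are separate cultures, so the errors cover library-to-library spread that could be technical alone.

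Secreted gel-forming mucins (MUC2, MUC5AC, MUC5B and MUC6) polymerise into mucus, and their genes lie side by side on the short arm of chromosome 11. MUC6 is the mucin of the deep gastric glands, MUC2 that of intestinal goblet cells, MUC5AC that of the gastric surface and airway, and MUC5B that of airway and salivary glands. MUC1 and MUC4 are cell-surface mucins whose long sugar-coated outer part stays tied to the membrane and which take part in growth factor receptor signalling, and MUC20 is a small surface mucin known to bind the receptor tyrosine kinase MET.

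The feature these proteins share can be read from their coding sequence. In the longest complete coding sequence of each gene in GENCODE v29 (GRCh38), codons for serine, threonine or proline made up 40.3% of the 2439 codons of MUC6, 44.1% of the 1262 codons of MUC1 and 42.5% of the 723 codons of MUC20. They made up 48.0% in MUC4, 45.5% in MUC5AC and 41.8% in MUC5B, against a median of 18.6% over 15632 genes of the table. No complete coding sequence of MUC2 was used here. MUC6, with the lowest share of these 6 mucins, still ranked 19th of the 15632 genes. For the 3 mucins that were measurable in these cells, the stretch of 50 codons within 1 exon with the most such codons is shown. It was picked by codon content alone, and which parts of each protein carry the sugars was not examined. Capitals mark codons for serine, threonine or proline, which number 36 of 50 in MUC6, 31 of 50 in MUC1 and 30 of 50 in MUC20.
MUC6 (chr11:1018040-1018189, minus strand, exon 31): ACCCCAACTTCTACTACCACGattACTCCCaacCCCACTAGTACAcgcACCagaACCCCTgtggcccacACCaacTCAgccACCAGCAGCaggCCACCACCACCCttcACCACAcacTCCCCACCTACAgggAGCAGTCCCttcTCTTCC
MUC1 (chr1:155188298-155188447, minus strand, exon 6): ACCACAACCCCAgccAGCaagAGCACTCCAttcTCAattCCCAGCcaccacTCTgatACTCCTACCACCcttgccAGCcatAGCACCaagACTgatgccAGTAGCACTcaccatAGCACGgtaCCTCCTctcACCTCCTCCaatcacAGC
MUC20 (chr3:195726389-195726538, plus strand, exon 2): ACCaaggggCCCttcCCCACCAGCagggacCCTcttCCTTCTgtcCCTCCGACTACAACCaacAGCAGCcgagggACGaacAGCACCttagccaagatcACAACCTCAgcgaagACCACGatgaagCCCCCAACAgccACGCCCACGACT
The stretch of MUC6 lies in exon 31, and those of MUC1 and MUC20 begin at codons 989 and 596 of their coding sequences. Exact repeats differ between the genes, counted as stretches of 150 bases that occurred more than once, base for base, within the same coding sequence. They made up 0% of the stretches in MUC6, 26.9% in MUC1 and 18.2% in MUC20. Imperfect repeats were not counted, so the 0% does not mean that MUC6 lacks repeats. How the authors' counting treated reads from exact or imperfect repeats is not given in the sources used here.

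**Figure D1:**
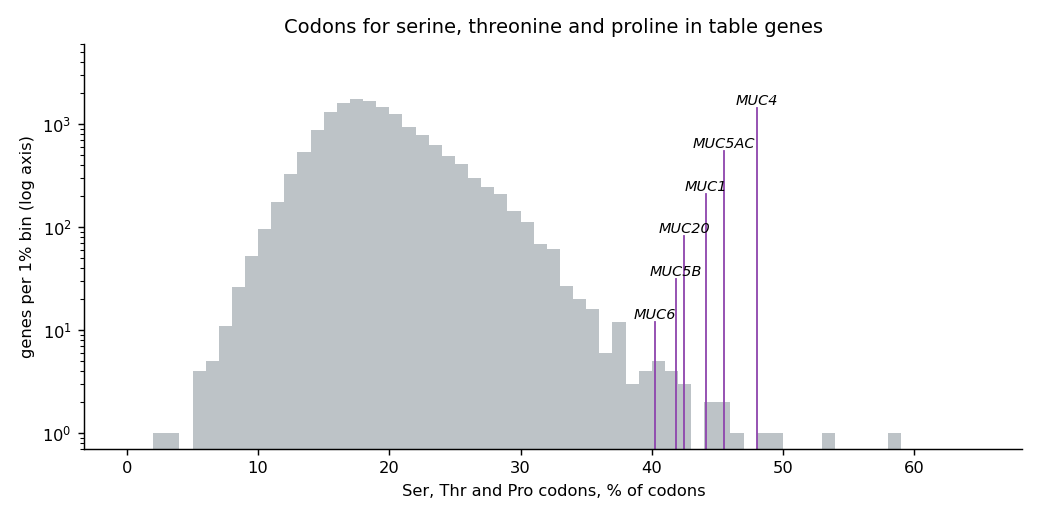
Share of codons for serine, threonine or proline in each coding sequence (x axis, percent of codons) against the number of genes per bin of 1% (y axis, log scale), for genes of the table with a complete coding sequence (grey), with 6 mucins marked by lines whose height has no meaning. The mucins lie between 40.3% and 48.0%, against a median of 18.6% over all genes.

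MUC6 was the most abundant of the 7 mucins in every library, and its level was lower in both ketotifen libraries. It stood at 19.7 and 21.1 FPKM in ketotifen libraries A and B, against 27.97 and 32.92 FPKM in PBS libraries A and B. The groups did not overlap, and PBS library B was the highest of the 4. The mean was 20.4 ± 0.963 FPKM with ketotifen and 30.4 ± 3.50 FPKM with PBS, a ratio of 0.671. On the log2(FPKM + 1) scale the change, ketotifen minus PBS, was -0.55 ± 0.08 (SE), with a 95% interval of -0.74 to -0.36. These values rest on 5807 and 5711 reads recovered for the ketotifen libraries and 7370 and 9171 for the PBS libraries, so read sampling is a small part of the spread. By its mean over the 4 libraries MUC6 ranked 2717th of 16376 rows. Its gene (chromosome 11, 1012823 to 1036718, minus strand, GRCh38.p14) overlaps no other gene in GENCODE v29.

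MUC1, the surface mucin, was second in level and was also lower in both ketotifen libraries. It stood at 5.63 and 4.81 FPKM in the ketotifen libraries, against 6.532 and 8.002 FPKM in the PBS libraries. The groups did not overlap, and PBS library B was again the highest. The mean was 5.22 ± 0.580 FPKM with ketotifen and 7.27 ± 1.04 FPKM with PBS, a ratio of 0.718, and the log2(FPKM + 1) change was -0.41 ± 0.10 (SE), with a 95% interval of -0.65 to -0.17. The reads were 841 and 661 with ketotifen and 874 and 1132 with PBS. In GENCODE v29 another protein-coding gene, AL713999.1, shares exon sequence with MUC1 on the same strand (chromosome 1, 155185824 to 155192915 for MUC1), so reads of these genes could be split or dropped in counting.

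MUC20, the surface mucin that binds MET, had overlapping groups. It stood at 3.03 and 4.15 FPKM in the ketotifen libraries, against 3.59 and 3.36 FPKM in the PBS libraries. The lowest and the highest of the 4 values were both from ketotifen libraries. The mean was 3.59 ± 0.791 FPKM with ketotifen and 3.47 ± 0.162 FPKM with PBS, and the log2(FPKM + 1) change was 0.03 ± 0.12 (SE), with a 95% interval of -0.24 to 0.30. That interval spans both directions, so the sign of the change was not resolved. The ketotifen libraries differed from each other more than the PBS libraries did. The reads were 277 and 349 with ketotifen and 294 and 291 with PBS. MUC20 (chromosome 3, 195720978 to 195733551) shares exon sequence on the same strand with the noncoding gene MUC20-OT1, so its reads carry the same doubt.

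The other 4 mucins were near the limit of detection and did not reach the mean of 1 FPKM required for testing. MUC5AC, the gastric surface and airway mucin, stood at 0.00312 and 0.00509 FPKM in the ketotifen libraries, against 0.0174 and 0.0264 FPKM in the PBS libraries. These are 2 and 3 reads with ketotifen and 10 and 16 with PBS, and the groups did not overlap. For scale, 3 reads of MUC5AC correspond to 0.00468 to 0.00523 FPKM, depending on the library, so both ketotifen values are at or under that floor and no fold change is given. MUC4 had 1 and 2 reads in the ketotifen libraries, against 2 and 0 in the PBS libraries. MUC5B had 0 and 0 reads in the ketotifen libraries, against 0 and 1 in the PBS libraries. MUC2 was listed at 0 in both ketotifen libraries, against 0.00481 and 0.00455 FPKM in PBS libraries A and B. A count of 0 allows up to 3 reads, which for MUC5B is 0.00456 and 0.00496 FPKM in the ketotifen libraries, and these floors cover counting error only. Counts so low do not tell absence from a trace of expression. The antisense gene MUC5B-AS1 overlaps exons of MUC5B, and whether counting used the strand is not given.

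The recovered read numbers are the smallest whole numbers that give the deposited values, so a factor common to all 4 libraries of a gene is lost. A check against gene length shows where that matters. Taking the sum of recovered reads as the library total, which leaves out 11 rows without recovered reads, the step size implies 8873 bases for MUC6, 4505 for MUC1 and 2759 for MUC20, against 8428, 4717 and 4249 bases of merged exons in GENCODE v29. For MUC5AC it implies 19312 against 17448 bases, for MUC5B 19825 against 18598 and for MUC4 18547 against 21325. For MUC2 it implies 7000 against 12667 bases if each PBS value is 1 read, so each may stand for more than 1 read.

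**Figure D2:**
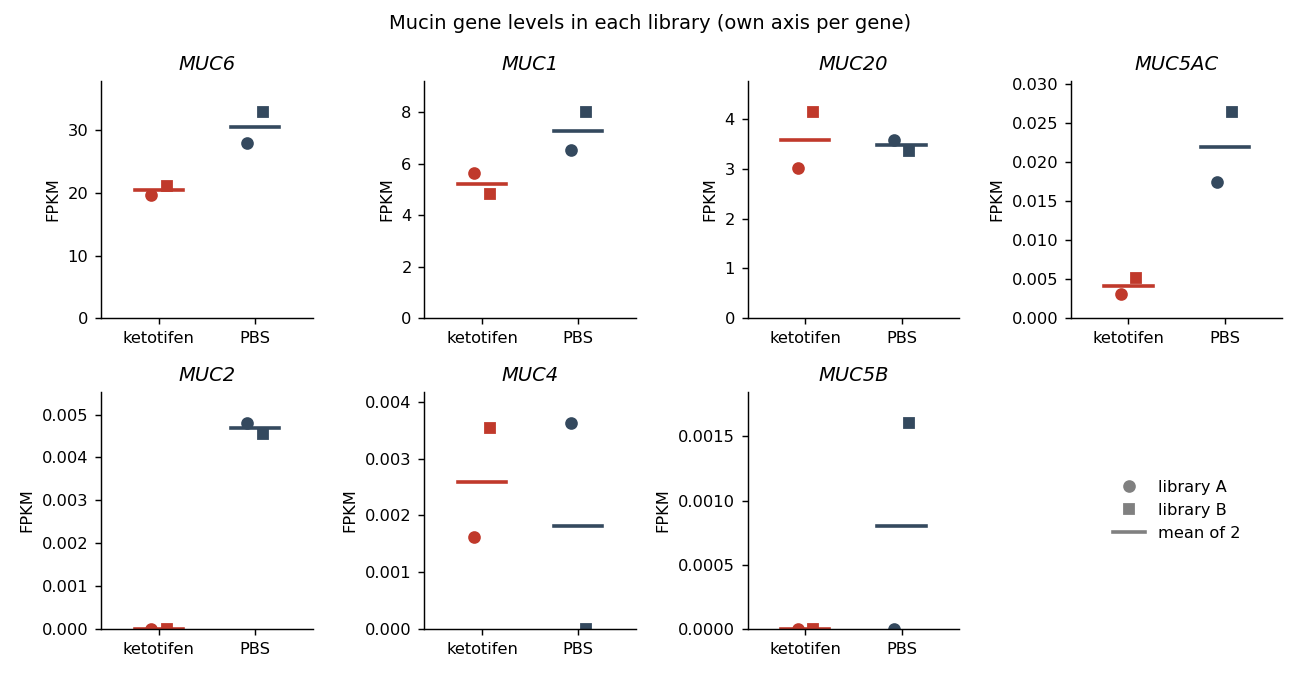
FPKM of 7 mucin genes (y axis, linear, own scale per gene) in ketotifen and PBS libraries (x axis), with circles for library A, squares for library B and bars for the mean of 2 libraries. MUC6 and MUC1 sit lower in both ketotifen libraries, MUC20 overlaps, and the axes of MUC5AC, MUC2, MUC4 and MUC5B all end below 0.04 FPKM.

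In order of level, MUC6 (19.7 to 32.9 FPKM over the 4 libraries) stood above MUC1 (4.81 to 8.002 FPKM), and MUC1 stood above MUC20 (3.03 to 4.15 FPKM), with no overlap between these ranges. MUC5AC, with a highest value of 0.0264 FPKM, was far below MUC20. MUC5AC was listed above MUC5B in every library (highest MUC5B value 0.00161 FPKM). In the ketotifen libraries this was 2 and 3 reads against 0 and 0, near or under the floor given above for MUC5B. The range of MUC5AC overlapped those of MUC2 and MUC4, and these overlapped that of MUC5B. The order among MUC5AC, MUC2, MUC4 and MUC5B was therefore not resolved. The groups of tested mucins that did not overlap were MUC6 and MUC1, 2 of 3, where 31.2% of all 10586 tested genes had both ketotifen libraries below both PBS libraries. Of the 4 mucins under the testing limit, MUC5AC and MUC2 had both ketotifen libraries below both PBS libraries, as did 19.8% of 5790 rows under that limit, and 0 of the 4 had both above, as 9.52% of these rows did. Nothing is read from these counts, since the genes were chosen with this contrast in view.

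Across the whole table, limma on log2(FPKM + 1) with Benjamini-Hochberg adjustment called 0.113% of 10586 tested genes lower with ketotifen and 0.00945% higher at an adjusted p under 0.05. None of the 3 tested mucins was among them. At an unadjusted p under 0.05 limma counted 2157 genes, 1062 higher (10%) and 1095 lower (10.3%), with 2 of the 3 mucins lower. MUC6 and MUC1, with log2(FPKM + 1) changes of -0.55 and -0.41, lay outside the middle 90% of all tested genes, -0.22 to 0.23. A change at or below that of MUC6 was seen in 29 tested genes. With limma's voom on the recovered reads, where 3.24% of 10575 genes were called lower and 3.39% higher, MUC6 and MUC1 were among those called lower and MUC20 was not called. As above, these calls describe genes picked for this contrast and support nothing.

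The spread within PBS bears on both genes. PBS library B was 17.7% above PBS library A for MUC6 and 22.5% above it for MUC1, and 4.20% of tested genes differed upward between these libraries at least as much as MUC6. Without PBS library B the log2(FPKM + 1) change was -0.44 for MUC6 and -0.28 for MUC1. Without PBS library A it was -0.66 for MUC6 and -0.54 for MUC1. In limma MUC6 was past the threshold with PBS library A or PBS library B left out, and MUC1 with PBS library A left out. Neither was past it with a ketotifen library left out. Each of these fits has 1 library in an arm, which is assumed to vary like the pair in the other arm, so without a PBS library the spread comes from the ketotifen pair alone. Over the whole table, the fit without PBS library A called 1061 genes higher and 875 lower. MUC20 had a change of 0.20 without ketotifen library A and of -0.15 without ketotifen library B, so its sign turned on 1 library.

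**Figure D3:**
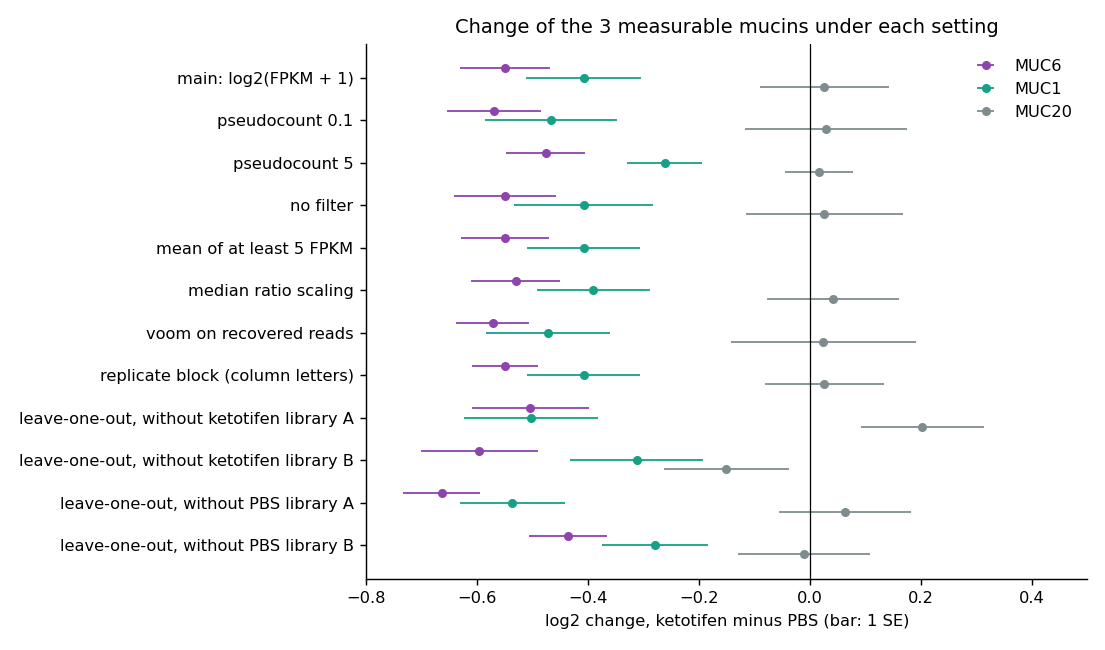
Log2 change, ketotifen minus PBS (x axis), of MUC6, MUC1 and MUC20 under each setting (y axis). Points are estimates and bars 1 SE, and MUC20 is missing where a mean of 5 FPKM was required. MUC6 stays between -0.66 and -0.44 without 1 library, and MUC20 lies on both sides of 0.

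MUC6 was the 1 secreted mucin of its chromosomal cluster above 1 FPKM. In chromosome order the cluster runs MUC6, MUC2, MUC5AC and MUC5B, from 1012823 to 1262172 on chromosome 11 (GRCh38.p14), with MUC6 on the minus strand and the others on the plus strand. Next to MUC6, AP2A2, a subunit of the clathrin adaptor AP2, had 30.1 ± 0.405 FPKM with ketotifen and 31.1 ± 0.473 FPKM with PBS, a log2(FPKM + 1) change of -0.05 (limma adjusted p = 0.644). Beyond MUC5B, TOLLIP, an adaptor of innate immune signalling, had 11.9 ± 0.255 FPKM with ketotifen and 12.6 ± 0.0919 FPKM with PBS (limma adjusted p = 0.502). Of 9 neighbouring genes listed at the locus 8 were tested and none was called by limma, with a median log2(FPKM + 1) change of 0.01 against -0.02 over all tested genes. Voom called 1 of the 8 higher, POLR2L, a shared subunit of RNA polymerases, which had 205 ± 6.96 FPKM with ketotifen and 163 ± 29.7 FPKM with PBS (voom adjusted p = 0.021, limma adjusted p = 0.158). Of 13 listed neighbours of the other mucin loci 10 were tested, and neither limma nor voom called any. The smallest p among them was that of DPM3, a subunit of dolichol-phosphate mannose synthase encoded near MUC1, which had 27.98 and 27.44 FPKM in the ketotifen libraries, against 22.13 and 23.05 FPKM in the PBS libraries (limma adjusted p = 0.0968, voom adjusted p = 0.145).

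**Figure D4:**
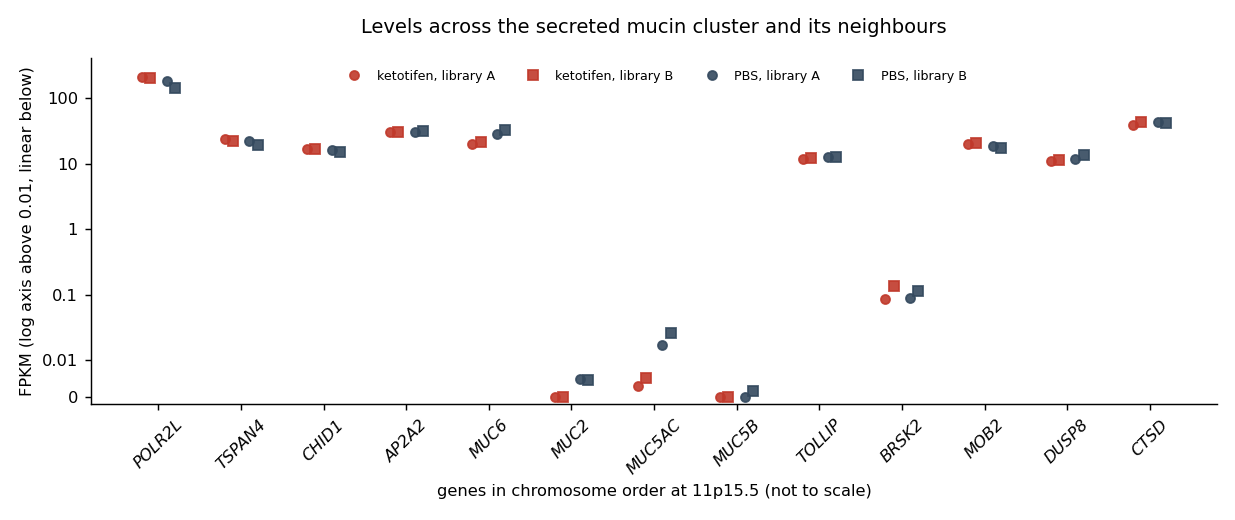
FPKM in each library (y axis, logarithmic above 0.01 and linear below) for genes in chromosome order around the secreted mucin cluster (x axis, not to scale). Circles are library A and squares library B, ketotifen left of PBS for each gene. MUC6 sits near AP2A2 in the PBS libraries and below it in both ketotifen libraries, while MUC2, MUC5AC and MUC5B sit below 0.04 FPKM.

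Promoter sequences in RefSeq (GRCh38.p14) were matched for 3 of the 7 mucins, MUC1, MUC2 and MUC4. MUC5AC, MUC5B, MUC6 and MUC20 had no entry. The 250 bases before the start are shown because they set a mucin with 661 to 1132 reads per library (MUC1) beside mucins that were nearly silent (MUC2 and MUC4). Capitals mark GGGCGG, the GC box bound by Sp-family factors, and TATAAA, the TATA box, each on either strand.
MUC1 (chr1:155192916-155193165, minus strand): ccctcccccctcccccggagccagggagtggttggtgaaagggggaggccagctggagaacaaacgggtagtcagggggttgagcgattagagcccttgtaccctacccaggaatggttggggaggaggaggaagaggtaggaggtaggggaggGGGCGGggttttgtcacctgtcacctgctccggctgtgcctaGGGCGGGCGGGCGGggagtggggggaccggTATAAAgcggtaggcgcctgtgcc
MUC2 (chr11:1074624-1074873, plus strand): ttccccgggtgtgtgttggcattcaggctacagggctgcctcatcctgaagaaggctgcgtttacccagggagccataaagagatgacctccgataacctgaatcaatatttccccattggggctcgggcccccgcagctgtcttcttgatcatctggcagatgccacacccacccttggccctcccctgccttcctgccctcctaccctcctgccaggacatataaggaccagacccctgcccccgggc
MUC4 (chr3:195811930-195812179, minus strand): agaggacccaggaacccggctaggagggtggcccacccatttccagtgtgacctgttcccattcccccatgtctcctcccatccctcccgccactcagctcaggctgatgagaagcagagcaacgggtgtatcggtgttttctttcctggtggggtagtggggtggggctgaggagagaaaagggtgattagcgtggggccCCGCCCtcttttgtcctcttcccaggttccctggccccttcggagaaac
GGGCGG matched 4 times in MUC1, some of the matches overlapping, once in MUC4 and 0 times in MUC2, and 42.6% of 35116 promoter entries held it. TATAAA matched 1 time in MUC1 and 0 times in the others, and 10.7% of all entries held it. CACCC, another motif of Sp and KLF factors, matched 0 times in MUC1, 3 times in MUC2 and 5 times in MUC4, and 54.7% of all entries held it. TTCNNNGAA, the STAT element, matched 1 time in MUC4 and 0 times in the others, and 6.57% of all entries held it. All motifs were searched on both strands, and a match is not a binding site.

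The 8 lists of mucin-related genes, the chromosomal neighbours included, hold 62 tested genes, and limma called 0 of them. At an unadjusted p under 0.05 limma counted 10 of the 62 higher and 2 lower, where 10% of all tested genes were higher and 10.3% lower. Voom called 4 higher and 1 lower, where it called 3.39% of all genes higher and 3.24% lower.

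Other mucins of the list were mostly low. Of 17 listed 10 had a row, and 2 were tested with neither called. CD164, the sialomucin endolyn, had 53.9 and 52.8 FPKM in the ketotifen libraries, against 54.7 and 51.5 FPKM in the PBS libraries. PODXL, podocalyxin, had 14.3 and 14.2 FPKM in the ketotifen libraries, against 14.96 and 16.39 FPKM in the PBS libraries (limma adjusted p = 0.306). MUC19, a further gel-forming mucin, lay under the testing limit with 0.464 and 0.504 FPKM in the ketotifen libraries, against 0.404 and 0.550 FPKM in the PBS libraries. MUC3A, MUC15 and MUC22 had 0 to 5 reads per library.

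Enzymes that put the first sugar on mucins were present and not called. All 20 listed polypeptide GalNAc-transferases had a row, 10 were tested, and limma and voom called 0, with 0 at an unadjusted p under 0.05 and a median log2(FPKM + 1) change of -0.04. GALNT1 was the highest, at 18.6 and 18.1 FPKM in the ketotifen libraries, against 18.1 and 18.7 FPKM in the PBS libraries. Of 18 enzymes and transporters that build and cap the sugar chains 11 were tested, limma and voom called 0, with 3 higher and 0 lower at an unadjusted p under 0.05, and the median change was 0.09. ST6GALNAC4, a sialyltransferase, was the highest, at 60.4 and 58.4 FPKM in the ketotifen libraries, against 60.1 and 59.2 FPKM in the PBS libraries (limma adjusted p = 0.957). C1GALT1, which makes the core of most mucin chains, had 3.22 and 3.02 FPKM in the ketotifen libraries, against 3.46 and 3.73 FPKM in the PBS libraries (limma adjusted p = 0.307). SLC35A1, the transporter that brings activated sialic acid into the Golgi, had 7.66 and 7.49 FPKM in the ketotifen libraries, against 5.48 and 6.56 FPKM in the PBS libraries (limma adjusted p = 0.148).

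Of 17 listed partners of mucins in folding, packing and secretion 6 were tested, and limma called 0. ST14, the membrane serine protease matriptase, was the highest, at 240.3 and 243.9 FPKM in the ketotifen libraries, against 248.5 and 242.1 FPKM in the PBS libraries (limma adjusted p = 0.859). Voom called 2 higher, TFF3 and KLK12. TFF3, the trefoil peptide that goblet cells secrete together with mucin, had 152 and 140 FPKM in the ketotifen libraries, against 130 and 105 FPKM in the PBS libraries (voom adjusted p = 0.0181, limma adjusted p = 0.151). Its direction was opposite to that of MUC6, with a log2(FPKM + 1) change of 0.31 ± 0.10 (SE). KLK12, a kallikrein-related serine protease, had 102 and 110 FPKM in the ketotifen libraries, against 95.2 and 80.0 FPKM in the PBS libraries (voom adjusted p = 0.0211, limma adjusted p = 0.152). AGR2, the disulfide isomerase needed to fold MUC2 in the mouse intestine, had at most 0.0848 FPKM in any library.

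Among transcription factors known to act on mucin genes, 6 of 19 listed were tested, and limma called 0. All 6 had negative changes (median log2(FPKM + 1) change -0.13), as did 55.7% of all tested genes (median -0.02). Voom called 1 lower, SOX9. SOX9, a factor of glandular progenitors, had 61.9 and 63.8 FPKM in the ketotifen libraries, against 72.6 and 81.8 FPKM in the PBS libraries (voom adjusted p = 0.00576, limma adjusted p = 0.104). SP1, which binds GC boxes, had 15.45 and 14.71 FPKM in the ketotifen libraries, against 16.3 and 18.9 FPKM in the PBS libraries (voom adjusted p = 0.0514, limma adjusted p = 0.197). For both, PBS library B was the highest of the 4, as it was for MUC6 and MUC1. SPDEF, the factor that drives goblet cell mucin production, had 1 and 1 reads in the ketotifen libraries, against 9 and 2 in the PBS libraries.

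Of 12 listed binding and signalling partners 10 were tested and limma called 0, with a median log2(FPKM + 1) change of 0.01. MET, the partner of MUC20, had 12.51 and 12.98 FPKM in the ketotifen libraries, against 14.5 and 13.3 FPKM in the PBS libraries (limma adjusted p = 0.350). ERBB2, the receptor bound by MUC4, had 6.68 and 6.21 FPKM in the ketotifen libraries, against 7.39 and 6.87 FPKM in the PBS libraries (limma adjusted p = 0.361). CTNNB1, the β-catenin gene whose product binds the tail of MUC1, was the 1 partner called higher by voom, with 77.6 and 73.6 FPKM in the ketotifen libraries, against 65.97 and 63.45 FPKM in the PBS libraries (voom adjusted p = 0.0134, limma adjusted p = 0.115).

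**Figure D5:**
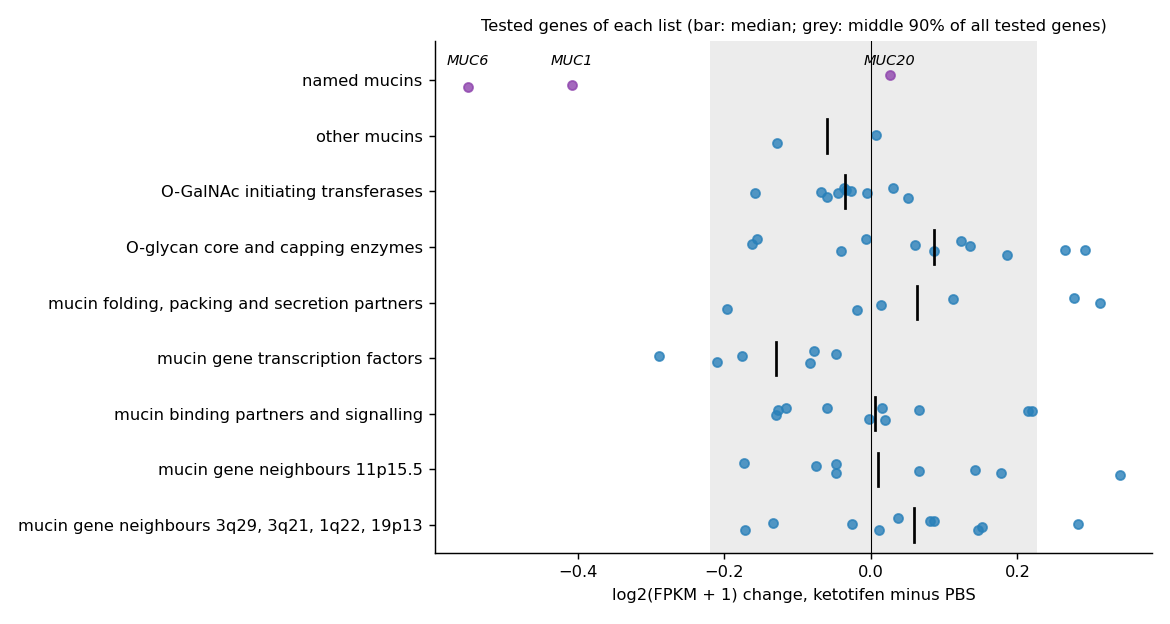
Log2(FPKM + 1) change, ketotifen minus PBS (x axis), of tested genes in the named mucins and 8 related lists (y axis). Points are genes, black bars list medians and the grey band the middle 90% of all tested genes, -0.22 to 0.23. MUC6 and MUC1 lie left of the band, and MUC20 and most list genes lie inside it.

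Genes whose pattern over the 4 libraries was most like that of MUC6 were found by the root mean square difference of log2(FPKM + 1) values centred on each gene's mean. The closest 5 were STING1, an adaptor of innate DNA sensing (difference 0.0461), CDC42EP1, an effector of the GTPase CDC42 (0.0474), PHLDA2, an imprinted growth regulator (0.0532), EEF1A2, a translation elongation factor isoform (0.0616) and ZFP36L1, a protein that promotes decay of AU-rich messages (0.0648). PHLDA2, the most abundant of the 5, had 13.47 and 12.97 FPKM in the ketotifen libraries, against 18.2 and 20.9 FPKM in the PBS libraries. STING1 was low, at 1.24 and 1.45 FPKM in the ketotifen libraries, against 2.13 and 2.45 FPKM in the PBS libraries. Its ratio of mean FPKM was 0.587, against 0.671 for MUC6. Adding 1 before the log shrinks the change of so low a gene, so this likeness depends on the scale. MUC1 ranked 43rd by the same measure (0.123) and MUC20 7433rd (0.321). Over 4 libraries such likeness is a description of these libraries only.

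The cells carried the neuroendocrine label unevenly: INSM1, a neuroendocrine transcription factor, had 19.7 and 21.8 FPKM in the ketotifen libraries, against 22.9 and 21.7 FPKM in the PBS libraries, while CHGA, CHGB and NEUROD1 stayed below 0.1 FPKM and SYP between 0.379 and 0.594 FPKM. In the gastric mucous cell list 3 of 6 markers had a row and none reached 1 FPKM. Their summed level was 0.886 and 0.572 FPKM in the ketotifen libraries, against 0.124 and 0.165 FPKM in the PBS libraries. Most of this was TFF1, with 8 and 4 recovered reads in the ketotifen libraries, against 1 and 1 in the PBS libraries. For TFF1, 3 such reads correspond to 0.332 to 0.371 FPKM, so both PBS values were under that floor and no change is read from the sum. In the goblet cell list 6 of 8 had a row and TFF3 alone reached 1 FPKM, with summed levels of 152 and 140 FPKM in the ketotifen libraries, against 131 and 106 FPKM in the PBS libraries. Summed levels of fibroblast, endothelial and immune markers were at most 2.96, 0.218 and 0.0498 FPKM in any library. In bulk RNA, fewer cells expressing a mucin and less mucin RNA per cell cannot be told apart.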

How the data were processed

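The members and gene lists were chosen with earlier results of these data known. Polyadenylated RNA was sequenced as paired-end reads from 4 libraries with a stranded kit, per the labels' protocols. Tools named in the submitters' processing notes are fastp, HISAT2 and HTSeq, with the build GRCh38 and no versions. The deposited table holds the authors' FPKM values, 1 per gene and library. For annotation, gene lengths and use of strand, nothing is given in the sources used here. The column letters A and B were not matched to the labels' replicate numbers, and the main test did not pair libraries by them.

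Whole reads were recovered (Python 3.11.15) from the FPKM steps for 16365 of 16376 rows, within the rounding error of 9 decimals, that error staying under 0.05 reads and under 0.001 chance matches being expected. They summed to 33124875 and 30472508 for ketotifen libraries A and B and 29699914 and 31445553 for PBS libraries A and B, up to a common factor per gene. Within groups libraries differed by more than sampling (chi-square per gene 4.72 for ketotifen and 10.2 for PBS, where sampling gives about 1), so none was a repeated copy.

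The main test, limma 3.58.1 under R 4.3.3 with its trend option, used log2(FPKM + 1) of the 10586 genes averaging 1 FPKM or more and was two-sided, with Benjamini-Hochberg adjustment over all of them. Fold changes on this scale understate changes of low genes. Voom on recovered reads was the main alternative. Both were tested on simulated data. An exact permutation test of 2 against 2 libraries cannot go below p = 0.333, so none was made. Genes that could be named were the members, list genes with a call, the highest level or 1 of the 3 smallest p in their list, and the 5 most like MUC6. AGR2, C1GALT1, SPDEF, MUC19 and ERBB2 were named for their roles and AP2A2 and TOLLIP for their position, after their values were seen.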

Additional observations from a re-analysis of the deposited data

How the results depend on the processing

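MUC6 and MUC1 had negative changes under all 11 alternatives, and MUC20 had negative ones without ketotifen library B or PBS library B. The number of genes called over the whole table depended strongly on the setting. Main counts were 1 higher and 12 lower. No filter called 0 and 0 (1013 higher and 1282 lower at an unadjusted p under 0.05 in limma), a mean of at least 5 FPKM called 15 higher, and median ratio scaling called 2 lower. Voom called 358 higher and 343 lower. Leaving out 1 library gave 3 to 1061 higher and 7 to 875 lower, the most without PBS library A. Among the mucins, limma called 0 higher and 0 lower; the number lower was 1 with a mean of at least 5 FPKM (MUC6), 2 with voom and 0 to 2 without 1 library, and the number higher was 0 throughout. Among the 62 tested genes of the related lists, limma called 0 and 0, voom 4 higher and 1 lower, and leaving out 1 library gave 0 to 13 higher and 0 to 4 lower. The log2 changes without 1 library ranged from -0.66 to -0.44 for MUC6, from -0.54 to -0.28 for MUC1 and from -0.15 to 0.20 for MUC20. MUC6 was past the threshold in 5 of 11 alternatives and MUC1 in 3 of 11. The cause of these differences was not tested.

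With a replicate block on the letters A and B, the fit called 406 genes higher and 231 lower, 2 mucins lower, and 5 list genes higher and 1 lower. Whether libraries of the same letter share a culture or batch is not given in the sources used here. The B minus A differences of the groups correlated at 0.102 across 10586 genes. Such a correlation cannot decide whether the letters pair libraries. Depth limits MUC5AC, MUC2, MUC4 and MUC5B, and 2 libraries per group limit the rest.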

Other observations

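Of 45 genes of the mucin-related lists under the testing limit, 13 had groups that did not overlap. In 11 both ketotifen libraries were below both PBS libraries (AGR3, B3GNT3, EGFR, GALNT5, GALNT10, GALNT16, GALNTL5, GALNTL6, HEG1, MUC3A and SPDEF), as in 19.8% of all 5790 rows under that limit. In 2 (GATA6 and TFF1) both were above, as in 9.52% of these rows. None of the 45 was in the main test. The limma fit with no filter covered 106 list genes and called 0 higher and 0 lower. At an unadjusted p under 0.05 it counted 8 of the 106 higher and 7 lower. Over all 16104 genes it counted 1013 higher and 1282 lower. The 3 genes whose values follow were picked after their values were seen. TFF1, a trefoil peptide of the gastric surface, had 8 and 4 reads in the ketotifen libraries, against 1 and 1 in the PBS libraries. Its step size implies 272 bases against 551 bases of merged exons, so each of these reads may stand for more than 1. GALNT16, a GalNAc-transferase, had 1 and 1 reads in the ketotifen libraries, against 10 and 9 in the PBS libraries. EGFR, the epidermal growth factor receptor, had 4 and 3 reads in the ketotifen libraries, against 17 and 19 in the PBS libraries.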
